A study of Homo sapiens with 4 samples.

Results

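The genes that carry glucose into the cell and set the pace of its breakdown were examined in SNU638 cells, a line established from a human gastric carcinoma, with and without knockdown of ACTL6A, an actin-like subunit shared by several chromatin complexes. They comprised the glucose transporters SLC2A1 and SLC2A3, the enzymes HK1, HK2, PFKFB2, PFKFB3, PFKP, PKM and LDHA, and the lactate exporter SLC16A3. The 10 genes were chosen by name, with their differences between knockdown and control already known, and SLC2A3 was singled out on its own difference. Every difference given here for these genes is therefore a description and not a test. All probe sets listed under exactly 1 of these symbols were used, which gave 19 probe sets for 9 genes among 54613 probe sets that were not controls. No probe set was listed under SLC16A3, which is not analysed here.

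Transcripts were measured on 4 oligonucleotide arrays hybridised with biotin-labelled cRNA. The 2 control arrays (scramble) came from cells carrying a scrambled short hairpin RNA, and the 2 knockdown arrays (sh-ACTL6A) from cells carrying a hairpin against ACTL6A. Per the methods, hairpins were delivered by lentivirus in the pLKO.1 vector and the cells were then selected with puromycin. The labels name Dulbecco modified Eagle medium for these cells and the methods RPMI medium, both with fetal bovine serum. Neither separate cultures for the arrays within a group nor the hairpin used for each sh-ACTL6A array is stated in the labels. Every p-value here therefore rests on array-to-array spread that may be technical. Bulk RNA of this kind cannot tell fewer cells of a type from less RNA per cell.

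Glucose enters most cells through facilitative carriers of the SLC2A family, of which SLC2A1 (GLUT1) is the basal carrier of many tissues and SLC2A3 (GLUT3) a high-affinity carrier best known from neurons. Inside the cell, hexokinases trap glucose by phosphorylation, phosphofructokinase commits it to glycolysis under the control of fructose-2,6-bisphosphate, and pyruvate kinase and lactate dehydrogenase complete the route to lactate, which SLC16A3 exports. Several of these genes are textbook targets of the hypoxia-inducible factors, which bind an ACGTG or GCGTG core, and of MYC, which binds E-boxes.

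The promoters were searched for these letters. RefSeq promoters (GRCh38.p14, from 250 bases before to 50 after each start) were found for 8 of the 10 genes, in 24 windows, and none was given for SLC2A3 or PFKFB2. The E-box CACGTG, which itself holds ACGTG on both strands, stood in 3 of the 24 windows (of HK2, PFKFB3 and LDHA), against 7.26% of all 35116 promoters. ACGTG stood on either strand in 6 of the 24, from 5 genes, against 21.4% of all. GCGTG stood in 12 of the 24, against 36.5% of all. Each of the 8 genes had at least 1 such window, but some genes had several windows, so that share does not apply to a count by gene. TGACNNNGC, the core of the antioxidant response element, stood in 2 of the 24, in HK1 and PKM, against 13.3% of all. A match of letters is a description of the sequence and not a binding site. The 250 bases before the start are given for the windows with the E-box, because CACGTG is an E-box and holds a hypoxia-inducible factor core in the same letters. Coordinates are chr2:74834920-74835169 (HK2), chr10:6202682-6202931 (PFKFB3) and chr11:18394313-18394562 (LDHA), all on the plus strand, and capitals mark ACGTG or GCGTG on either strand.
HK2: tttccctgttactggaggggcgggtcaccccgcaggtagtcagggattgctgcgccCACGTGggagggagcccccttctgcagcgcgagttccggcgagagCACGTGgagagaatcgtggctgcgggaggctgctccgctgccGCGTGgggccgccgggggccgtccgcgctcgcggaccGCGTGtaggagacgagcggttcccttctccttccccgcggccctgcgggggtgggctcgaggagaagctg
PFKFB3: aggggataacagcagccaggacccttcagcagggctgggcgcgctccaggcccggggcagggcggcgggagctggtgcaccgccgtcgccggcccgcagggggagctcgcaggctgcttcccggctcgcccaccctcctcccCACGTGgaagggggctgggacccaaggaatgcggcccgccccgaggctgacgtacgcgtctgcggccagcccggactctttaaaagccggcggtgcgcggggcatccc
LDHA: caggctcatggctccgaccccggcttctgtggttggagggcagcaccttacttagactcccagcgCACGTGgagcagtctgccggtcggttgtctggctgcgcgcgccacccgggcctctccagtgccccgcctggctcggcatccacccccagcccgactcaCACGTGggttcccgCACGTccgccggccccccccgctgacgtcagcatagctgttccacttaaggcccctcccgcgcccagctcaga

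The arrays were comparable in scale, and the targeted gene followed the labels. Median log2 signal lay between 5.70 and 5.83 over the 4 arrays. ACTL6A read 11.92 and 11.82 in scramble and 10.16 and 10.32 in sh-ACTL6A, so it fell by 1.63 ± 0.14 on the log2 scale (SE, n = 2 arrays per group, limma adjusted p = 0.0408). It was the 1 gene called among 12286 tested, or 0.00814% (limma, adjusted p under 0.05). Of 11 epithelial markers, 8 lay above the signal threshold, EPCAM and KRT18 among them, while CLDN4, TFF1 and CDX2, of which CDX2 marks intestinal differentiation, did not. Of those 8, 7 had differences below 0 (median -0.25) and 0 were called, and their part in the results was not tested. Of 5 leukocyte markers, 3 had a probe set and 0 reached the threshold. Of 7 markers of fibroblasts and endothelium, 3 did, COL1A1, DCN and PECAM1, with a highest mean log2 signal of 8.44 and differences between -0.08 and 0.15. The signal ratio between the 3′ and 5′ control probe sets of ACTB, a measure of RNA integrity, differed by replicate number rather than by group, at 1.63 and 1.21 on the log2 scale on the arrays numbered 1 and 0.78 on both arrays numbered 2.

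SLC2A3 stood above scramble on both sh-ACTL6A arrays in each of its 3 probe sets, with SLC2A1 in the same direction and smaller, and the control enzymes scattered around 0. For each gene the brightest probe set served as its value. In that form SLC2A3 differed by 0.95 ± 0.17 on the log2 scale (SE, n = 2 arrays per group), SLC2A1 by 0.38 ± 0.19, and the 7 control enzymes by -0.30 to 0.21. The median difference of the 9 genes was -0.01, beside 0.01 over all 12286 genes.

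**Figure D1:**
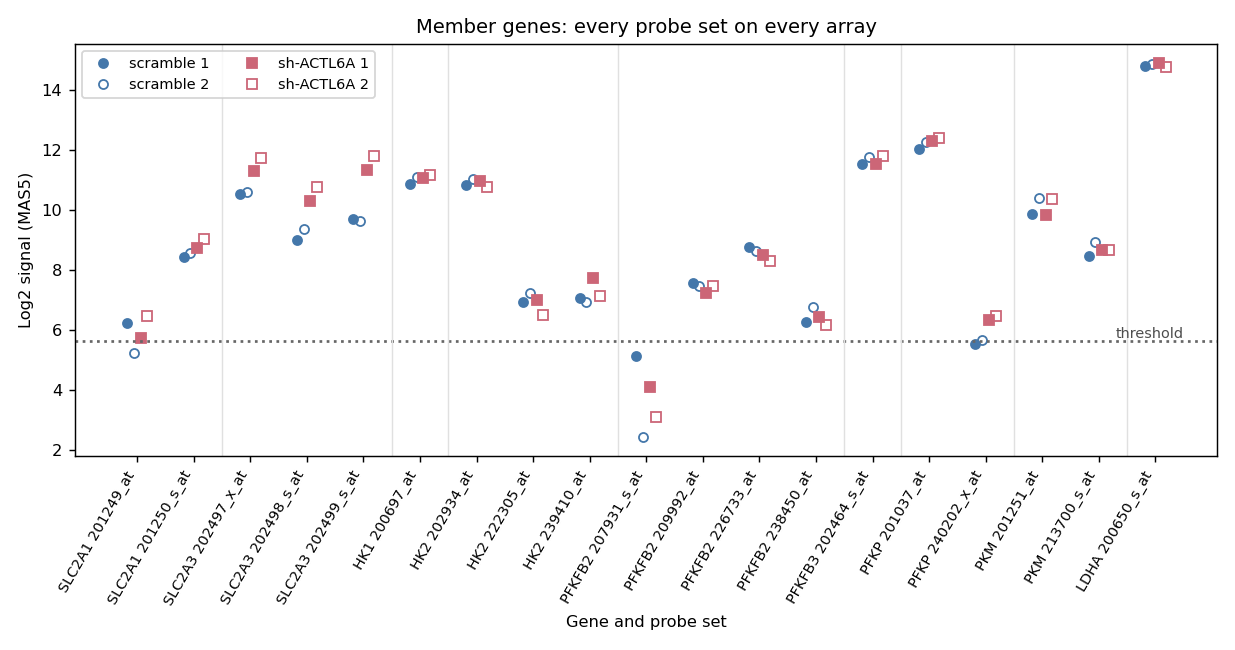
Log2 signal (MAS5) of each of the 19 probe sets on the 4 arrays, with scramble as circles and sh-ACTL6A as squares, and the signal threshold of 5.63 as a dotted line. The squares of the 3 SLC2A3 probe sets lie above the circles without overlap, whereas the squares and circles of HK1, PFKFB3, PKM and LDHA lie among each other.

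The transporter SLC2A3 gave 3 probe sets of different sizes of difference. Its brightest, 202497_x_at, read 10.52 and 10.60 in scramble and 11.29 and 11.73 in sh-ACTL6A. The second, 202498_s_at, read 8.98 and 9.38 in scramble and 10.30 and 10.75 in sh-ACTL6A. The third, 202499_s_at, read 9.69 and 9.62 in scramble and 11.31 and 11.78 in sh-ACTL6A. In all 3 the groups did not overlap, and sh-ACTL6A replicate 2 was the highest array, above replicate 1 by 0.44 to 0.48 on the log2 scale.

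The differences were 0.95 ± 0.17, 1.34 ± 0.21 and 1.89 ± 0.18 on the log2 scale (SE, limma over all probe sets), or 1.93-fold, 2.54-fold and 3.71-fold. The 95% confidence intervals ran from 0.55 to 1.35 for 202497_x_at and from 1.47 to 2.31 for 202499_s_at, so the brightest probe set, by which the gene is represented, gave the smallest of the 3 values. The mean of all 3 was 1.39. Adjusted over all 54613 probe sets, none passed, and the lowest adjusted p of the member probe sets was 0.552, for 202499_s_at. Affymetrix uses the ending _x_at for sets in which some probes may match other genes and _s_at for sets that match several transcripts. SLC2A14, a close paralog that adjoins SLC2A3 on chromosome 12 with 0 protein-coding genes between them, had no probe set listed under its symbol alone. A further 2 probe sets list both genes and were not used, and the part of SLC2A14 in the SLC2A3 signal was not tested.

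SLC2A3 was selected on its difference, so its place among bright probe sets is a description and not a test. Among the 6217 other probe sets at least as bright as 202499_s_at, 0 had a difference as high. Among the 8879 at least as bright as 202498_s_at there was 1, which was 202499_s_at itself, and among the 4827 at least as bright as 202497_x_at there were 2, for SGPL1 and COX20. SGPL1, sphingosine-1-phosphate lyase, was named here after its values were seen. It read 10.85 and 10.78 in scramble and 11.88 and 11.75 in sh-ACTL6A. Over all 12286 genes without regard to brightness, SLC2A3 stood in place 73 from the top by difference and in place 19 by unadjusted p.

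**Figure D2:**
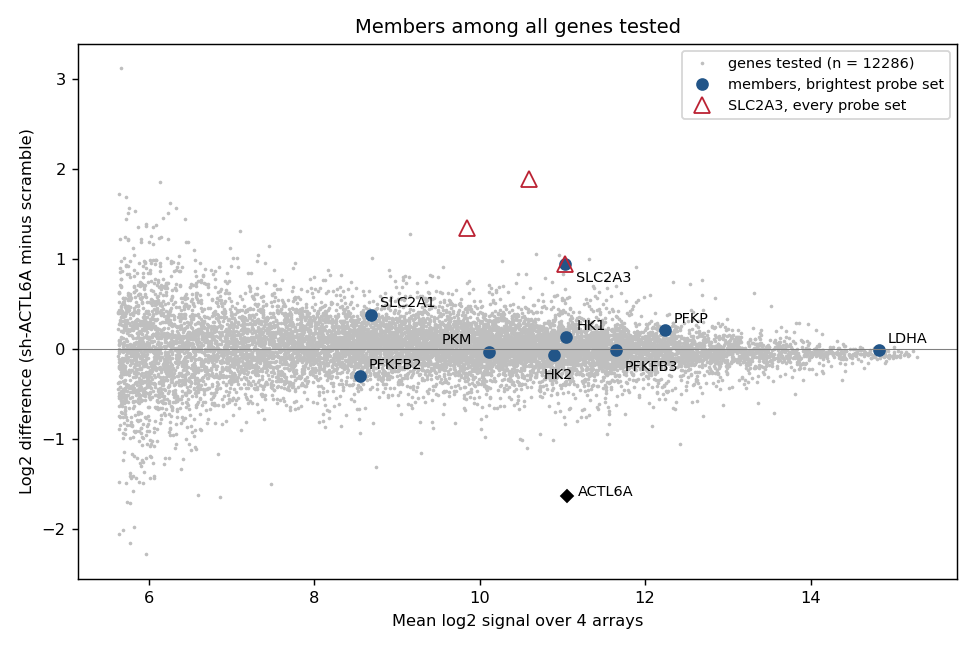
Log2 difference (sh-ACTL6A minus scramble) against mean log2 signal over 4 arrays for the 12286 genes tested (grey), the 9 member genes (blue circles), every SLC2A3 probe set (open triangles) and ACTL6A (diamond). The SLC2A3 triangles lie at 0.95, 1.34 and 1.89, above nearly all grey points of like brightness, and the other members lie between -0.30 and 0.38.

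SLC2A1, the basal carrier, gave 2 probe sets. The brighter, 201250_s_at, read 8.43 and 8.55 in scramble and 8.71 and 9.03 in sh-ACTL6A, a difference of 0.38 ± 0.19 (95% confidence interval -0.07 to 0.83), and its groups did not overlap. The dimmer, 201249_at, read 6.25 and 5.25 in scramble and 5.74 and 6.47 in sh-ACTL6A, so its groups overlapped and its difference of 0.36 had an SE of 0.52. Leaving out 1 array moved the dimmer value between -0.15 (without scramble replicate 2) and 0.86 (without scramble replicate 1), so it had no settled direction, while the brighter stayed between 0.22 and 0.54. The SLC2A3 difference exceeded that of SLC2A1 by 0.57 on the log2 scale. With each gene set to its own scramble mean, SLC2A3 minus SLC2A1 was 0.02 and -0.02 in scramble and 0.50 and 0.63 in sh-ACTL6A.

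Hexokinases, which hold glucose in the cell, showed no common direction. HK1, the widely expressed form, read 10.87 and 11.09 in scramble and 11.07 and 11.15 in sh-ACTL6A, a difference of 0.13 ± 0.14 with overlapping groups, which was 0.021 without scramble replicate 1 and 0.24 without scramble replicate 2. HK2, the inducible form common in tumours, read 10.83 and 11.04 in scramble and 10.96 and 10.77 in sh-ACTL6A in its brightest probe set, a difference of -0.07 ± 0.15 that also overlapped. The dimmer HK2 probe sets differed in opposite directions, by -0.32 ± 0.32 for 222305_at with overlap, and by 0.42 ± 0.30 for 239410_at, whose values of 7.07 and 6.93 in scramble and 7.72 and 7.12 in sh-ACTL6A did not overlap.

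The bifunctional enzymes make and break fructose-2,6-bisphosphate, the activator of phosphofructokinase. PFKFB2 read 8.76 and 8.64 in scramble and 8.49 and 8.31 in sh-ACTL6A, a difference of -0.30 ± 0.18 (95% confidence interval -0.73 to 0.13). It was the single member whose sh-ACTL6A arrays both lay below both scramble arrays. All 4 of its probe sets had differences below 0, from -0.30 to -0.17. Only 2 of the 4 separated the groups, and 1, 207931_s_at, lay below the signal threshold and spread from 2.44 to 5.14 over the arrays. PFKFB3, the form induced in many tumours, read 11.53 and 11.77 in scramble and 11.51 and 11.78 in sh-ACTL6A, a difference of -0.01 ± 0.15. Its values followed the replicate number, with replicate 1 below replicate 2 by 0.24 in scramble and by 0.27 in sh-ACTL6A.

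PFKP, the platelet-type phosphofructokinase, read 12.01 and 12.25 in scramble and 12.30 and 12.40 in sh-ACTL6A. Its difference was 0.21 ± 0.13 (95% confidence interval -0.08 to 0.51), and the groups did not overlap. It was 0.096 without scramble replicate 1 and 0.33 without scramble replicate 2. The dim PFKP probe set 240202_x_at read 5.53 and 5.68 in scramble and 6.35 and 6.46 in sh-ACTL6A. Its scramble mean of 5.60 lay below the threshold, so it passed only through the sh-ACTL6A arrays, and its difference of 0.80 ± 0.39 adds nothing to that of the bright probe set.

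At the end of the pathway the levels in the groups lay together. PKM, pyruvate kinase of muscle and tumour type, read 9.86 and 10.39 in scramble and 9.84 and 10.36 in sh-ACTL6A, a difference of -0.03 ± 0.24. Replicate 1 lay below replicate 2 by 0.53 in scramble and by 0.51 in sh-ACTL6A. The 3′ to 5′ ratio of ACTB was higher on the arrays numbered 1, and its part in this gap was not tested. The second PKM probe set, 213700_s_at, read 8.48 and 8.93 in scramble and 8.66 on both sh-ACTL6A arrays, so it had such a gap only in scramble, and it differed by -0.04 with overlapping groups. LDHA, the lactate dehydrogenase subunit that favours lactate, read 14.79 and 14.86 in scramble and 14.89 and 14.74 in sh-ACTL6A. Its difference of -0.01 had the narrowest interval of the 9 genes, from -0.19 to 0.17 on the log2 scale. LDHA was also the brightest of them, at a mean log2 signal of 14.82. In the fit over all probe sets its interval was wider, from -0.27 to 0.25.

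**Figure D3:**
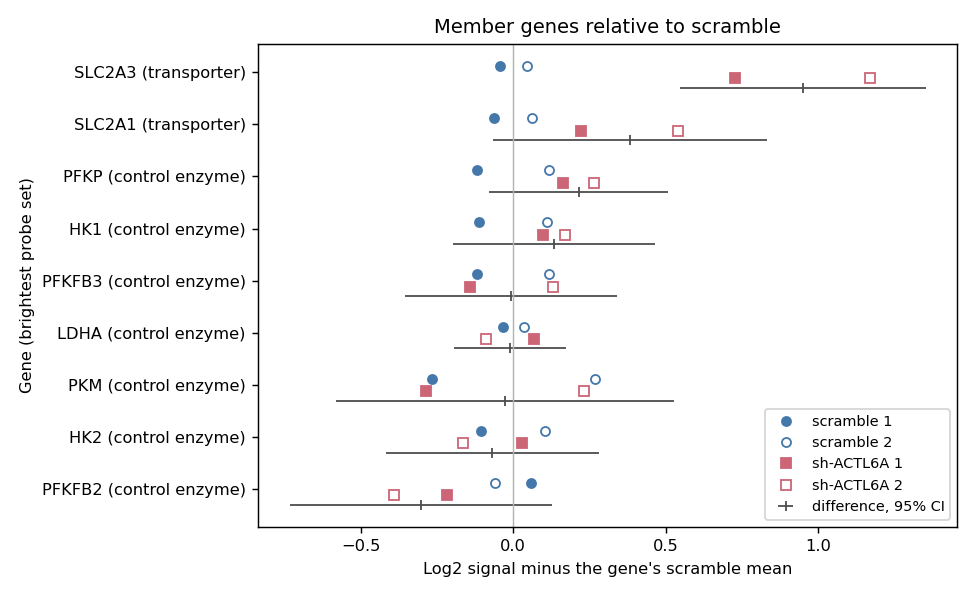
Log2 signal of each member gene minus its own scramble mean on the 4 arrays (circles scramble, squares sh-ACTL6A), with the difference and its 95% confidence interval as a bar. The SLC2A3 interval runs from 0.55 to 1.35, and those of the other 8 genes include 0.

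SLC2A3 also stood apart from the control enzymes as a group. Its difference exceeded their median by 0.96 on the log2 scale. With each gene set to its scramble mean, SLC2A3 minus that median was 0.07 and -0.07 in scramble and 0.70 and 1.04 in sh-ACTL6A. No test of this distance was made, because SLC2A3 was selected on it.

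Counts over the members read as follows. Of the 9 genes, 0 were called by limma at an adjusted p under 0.05, with adjusted p from 0.401 for SLC2A3 to 0.998, and 1 had an unadjusted p under 0.05, which was SLC2A3, where 5.5% of all genes did. The sh-ACTL6A arrays both lay above both scramble arrays in 3 genes (SLC2A1, SLC2A3 and PFKP), as they did in 19.3% of all genes, and both below in 1 (PFKFB2), as in 15.4% of all genes. By probe set, 18 of the 19 were above the threshold, of which 7 lay higher and 2 lower without overlap, where 18.3% and 15.1% of all probe sets above the threshold did. Of those 7, 3 were SLC2A3 and 1 was the dim PFKP probe set with a scramble mean below the threshold. Since the members were chosen with this contrast known, nothing is read from these shares.

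The wider pathway was described by 5 lists of other genes, 96 in all, of which 65 were above the threshold. None of the 65 was called by limma in either direction (adjusted p from 0.751 to 0.999). At an unadjusted p under 0.05 there were 4 of the 65, all higher in sh-ACTL6A, where 5.5% of all genes tested had such a p. The median difference of the 65 was 0.04, beside 0.01 over all genes.

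Of 14 other glucose transporters listed, 7 were above the threshold, with 3 differences above 0, 4 below and a median of -0.14. The sign of this median was not stable, being 0.14 without scramble replicate 1, 0.13 without sh-ACTL6A replicate 1 and 0.14 with probe sets averaged per gene. The smallest unadjusted p belonged to SLC2A10, a carrier linked to arterial tortuosity, at 0.44 ± 0.25 (SE, n = 2 arrays per group), followed by SLC2A11 at 0.33 ± 0.23 and SLC2A13, the proton-coupled inositol carrier, at -0.21 ± 0.16. Both sh-ACTL6A arrays lay above both scramble arrays for SLC2A10 and SLC2A11, and the 5 probe sets of SLC2A13 ranged from -1.13 to 1.74.

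Other glycolysis enzymes, 17 of 24 above the threshold, had a median difference of 0.03, with 9 above 0 and 8 below, which ran from -0.058 without scramble replicate 1 to 0.12 without scramble replicate 2. PFKL, the liver-type phosphofructokinase, differed by 0.32 ± 0.20, BPGM, which makes 2,3-bisphosphoglycerate, by 0.28 ± 0.17, and ALDOC, the brain-type aldolase, by 0.36 ± 0.25. The genes for other control steps and for pyruvate or lactate handling, 13 of 21 above the threshold, had a median of 0.06, with 10 above 0 and 3 below. MPC1, a subunit of the mitochondrial pyruvate carrier, read 10.69 and 10.59 in scramble and 11.11 and 11.06 in sh-ACTL6A, a difference of 0.45 ± 0.14, whereas its other probe set differed by -0.54. BSG, the chaperone of the lactate carriers, differed by 0.32 ± 0.18 and PDK1, which turns off pyruvate dehydrogenase, by 0.21 ± 0.19.

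Regulators that sense glucose, oxygen and energy, 15 of 19 above the threshold, had a median of -0.03, which ran from -0.15 without scramble replicate 1 to 0.073 without sh-ACTL6A replicate 2. They held 3 of the 4 genes with an unadjusted p under 0.05, and these were ARNT, EGLN1 and HIF1AN. ARNT, the partner of HIF1A, read 8.62 and 8.48 in scramble and 8.93 and 9.42 in sh-ACTL6A, a difference of 0.63 ± 0.21. EGLN1, the prolyl hydroxylase that marks HIF1A for degradation, differed by 0.37 ± 0.14, and HIF1AN, the asparaginyl hydroxylase that blocks its activity, by 0.41 ± 0.16. All 4 EGLN1 and all 3 HIF1AN probe sets had differences above 0, while 4 of 7 did for ARNT, which ranged from -0.49 to 1.79. HIF1A itself differed by 0.06 ± 0.10, and TXNIP, a glucose-induced brake on glucose uptake, by -0.08 ± 0.24.

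Hypoxia-responsive genes outside glycolysis, 13 of 18 above the threshold, had a median of 0.16, with 9 above 0 and 4 below. Single arrays decided this median, which was -0.042 without sh-ACTL6A replicate 2, 0.00027 without scramble replicate 1, 0.32 without sh-ACTL6A replicate 1 and 0.34 without scramble replicate 2. KDM3A, a histone demethylase, differed by 0.30 ± 0.13, BNIP3L, a mitophagy receptor, by 0.29 ± 0.14 and ANKRD37 by 0.43 ± 0.27. Both scramble arrays lay below both sh-ACTL6A arrays for KDM3A and BNIP3L, and not for ANKRD37.

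**Figure D4:**
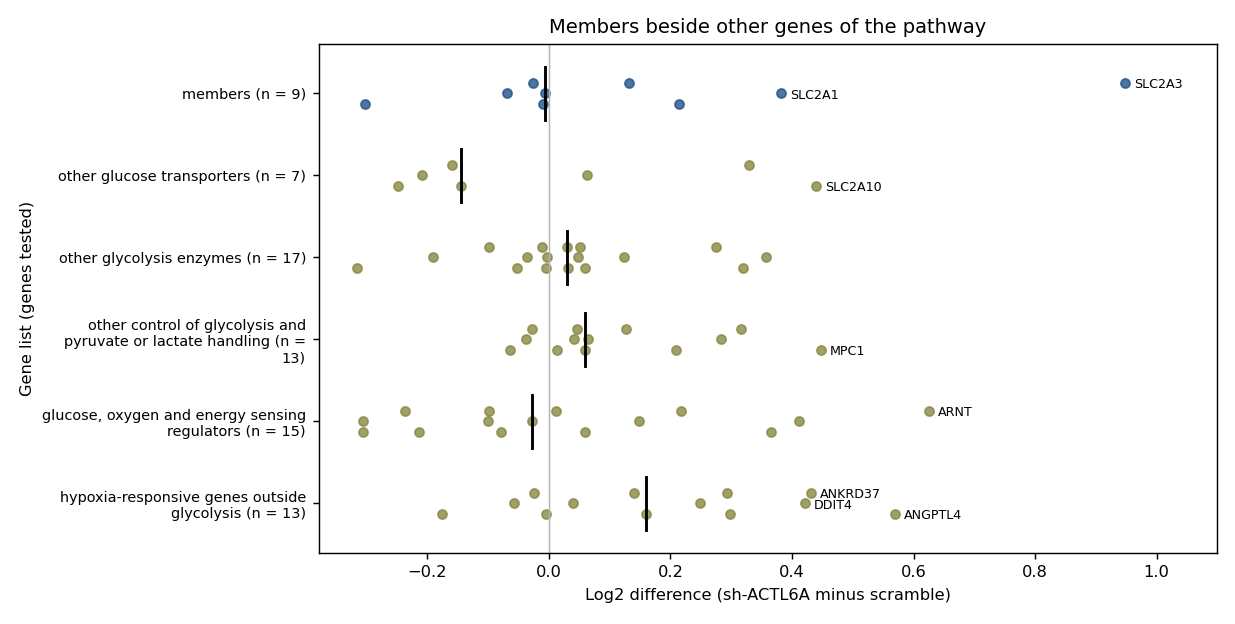
Log2 difference (sh-ACTL6A minus scramble) of each tested gene of the member set and of 5 lists of other pathway genes, with each list's median as a black bar. The list medians lie between -0.14 and 0.16, and SLC2A3 at 0.95 lies beyond every gene of the 5 lists, of which ARNT at 0.63 was the highest.

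The genes with the most similar pattern over the 4 arrays were found by root mean square distance between log2 values, each gene centred on its own mean. The 5 nearest to SLC2A3 were SHD, HYAL3, SMG6, BORCS6 and H2BC11, at distances of 0.03 to 0.09. All were dim, with mean log2 signals of 5.94 to 6.85 beside 11.03 for SLC2A3, and SEs of 0.31 to 0.38. SHD read 5.47 and 5.49 in scramble, below the threshold of 5.63, so it passed only through the sh-ACTL6A arrays. All 5 had sh-ACTL6A replicate 2 as their highest array, as SLC2A3 did, which follows from how they were picked. With 4 arrays such likeness describes these arrays and nothing more.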

How the data were processed

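Total RNA of SNU638 cells was hybridised by the authors to 4 arrays, 2 labelled scramble and 2 sh-ACTL6A. The values deposited by the authors were log2 signals. MAS5 is named in the submitters' processing notes, its version not given in the sources used here, and the values were used without further normalisation. MAS5 treats each array alone and scales it to a common level, and its signals for dim probe sets are noisy.

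Gene symbols came from the platform annotation, in which 41091 probe sets had 1 symbol, 1801 several and 11721 none. The probe set of highest mean signal stood for its gene, and genes whose mean reached the 50th percentile of all probe sets (log2 5.63) were tested. Differences were fitted with limma 3.58.1 in R 4.3.3 (lmFit, eBayes with an intensity trend, 7.65 degrees of freedom), 2-sided, with Benjamini-Hochberg adjustment over all 12286 genes, and again over all 54613 probe sets. The number of arrays limits the precision. The fit was tested on simulated data. The members, the gene lists and the tests were chosen with earlier results of these data known. Named genes were the members, ACTL6A, SLC2A14, the 3 genes of each list with the smallest unadjusted p, and the 5 nearest to SLC2A3 in pattern. SGPL1, COX20, HIF1A, TXNIP and MLX were added after their values were seen, and cell type markers and ACTB were named for the checks of the arrays. Protein likeness between members was not analysed here.

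As alternatives, arrays were quantile normalised or median centred, dim genes were kept or filtered at the 75th percentile, and all probe sets were averaged per gene. Further alternatives were an offset of 4.34 on the linear signal, eBayes without the trend, a replicate block, each array left out, the plain t-test of the methods, and every probe set tested.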

Additional observations from a re-analysis of the deposited data

How the results depend on the processing

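SLC2A3 lay higher in sh-ACTL6A under all 15 settings, by 0.73 to 1.39 on the log2 scale, and SLC2A1, HK1, PFKP and PFKFB2 also kept their sign in every setting that tested them, although leaving out an array moved SLC2A1 to between 0.22 (without sh-ACTL6A replicate 2) and 0.54, HK1 to between 0.021 and 0.24 and PFKP to between 0.096 and 0.33. HK2, PFKFB3, PKM and LDHA had differences on both sides of 0 across settings. SLC2A3 exceeded SLC2A1, the control enzymes and the other members by 1.02, 1.40 and 1.39 with probe sets averaged per gene, by 0.97, 1.38 and 1.36 with every probe set tested, and by 0.50 to 0.63, 0.70 to 1.04 and 0.68 to 1.02 with an array left out. Leaving out an array moved the members' median to between -0.044 and 0.24, the latter without scramble replicate 2 (0.17 without sh-ACTL6A replicate 1). Without sh-ACTL6A replicate 1 or 2, 1 member was called, SLC2A3 (limma adjusted p = 0.000493 and 0.0124), on fits in which the lone array was assumed to vary like the scramble pair and 401 and 335 genes were called in all. Among the other pathway genes, ARNT and EGLN1 differed by 0.87 and 0.53 without sh-ACTL6A replicate 1. MLX differed by -0.65 without sh-ACTL6A replicate 2, beside -0.24 with all arrays. The unadjusted t-test gave 2 of the 65 other pathway genes (HIF1AN and MPC1), where it gave 672 of all 12286 genes. ACTL6A differed by -1.71 to -1.55 with an array left out, and was not called without scramble replicate 1 (adjusted p = 0.9996) or 2 (0.567), after quantile normalisation (-1.64, adjusted p = 0.0522), or at -1.63 with no filter (0.0797), without the trend (0.556), by the adjusted t-test (0.844) or with every probe set tested (0.281). By the labels the arrays share only a replicate number. Deviations of same-numbered arrays had a correlation of 0.06 over all genes. In 7 of the 9 members replicate 1 minus replicate 2 had the same sign in both groups. The share of all genes with the same sign is not given here, so nothing is read from that count. With a replicate block 1 member probe set was called, SLC2A3 202499_s_at (adjusted p = 0.0116), among 3 in all, the SLC2A3 gene-level difference stayed 0.95 (adjusted p = 0.0931), and 0 members were called. The t-test of the methods called 0 members before or after adjustment. Unadjusted, it gave 3 member probe sets, among 2937 of all 54613 probe sets. These were 202498_s_at and 202499_s_at of SLC2A3 and 240202_x_at of PFKP, the last with a scramble mean below the threshold. The causes of these shifts were not tested.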
